A study of Danio rerio with 8 samples.

Results

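Wnt signalling genes were described in EpiCs and CMs sorted from *tcf21*-/- and *tcf21*+/+ zebrafish hearts. They were taken by symbol from the gene table of the RNA-seq experiment: every Wnt ligand (*wnt* and a number), Frizzled receptor (*fzd*), secreted antagonist (*sfrp*, *dkk*, *wif1*, *frzb*) and R-spondin (*rspo*), and *lrp5*, *lrp6*, the *axin* genes and *lef1*. This gave 51 of 21286 genes, of which 17 were ligands, 13 Frizzled receptors, 2 Lrp co-receptors, 4 R-spondins, 12 antagonists and 2 Axins, with Lef1 as the last.

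The hearts were taken at 96 hpf. Each of 4 groups had 2 libraries: EpiCs from *tcf21*-/- larvae (mutant), EpiCs from *tcf21*+/+ larvae (wild-type), and CMs from each of these genotypes. All larvae carried *TgBAC(tcf21:NLS-EGFP)*, which labels epicardial cells from the *tcf21* promoter, and *Tg(myl7:mCherry-CAAX)*, which labels the membranes of cardiomyocytes from the *myl7* promoter. EpiCs were sorted as EGFP+ cells, including those that were also mCherry+, and CMs as mCherry+ EGFP- cells, from pooled dissected hearts over several sorting sessions. The paper takes the EGFP+ mCherry+ cells as ventricular EpiCs. It takes the other EGFP+ cells as likely EpiCs of the outflow tract with some from the ventricle, so the EpiC libraries are not ventricular only. The mutant larvae carried the *bns427* allele, a frameshift deletion in exon 1 that leaves the mRNA in place, came from crosses of heterozygotes and were picked for missing head muscles and for hearts whose ventricles were still substantially covered by EpiCs. The wild-type larvae came from crosses of wild-type siblings, so genotype and parentage cannot be told apart, and mutant hearts that had lost their epicardium were not represented. Nothing states whether the 2 libraries of a group came from separate clutches, so *P*-values measure the spread between these libraries only.

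Wnt proteins are secreted, lipid-modified ligands. In the canonical branch they bind a Frizzled receptor together with Lrp5 or Lrp6, the destruction complex that holds Axin is disabled, and β-catenin enters the nucleus and activates target genes with Lef and Tcf factors. In the non-canonical branch, Wnt ligands such as Wnt11 and Wnt5b act through Frizzled receptors on cell polarity and movement. Sfrp proteins, Frzb and Wif1 bind Wnt proteins outside the cell, Dkk1 blocks the Lrp co-receptors, and R-spondins keep Frizzled and Lrp proteins at the cell surface by removing the ubiquitin ligases Znrf3 and Rnf43. The epicardium is a known source of secreted factors for the growing myocardium, and both branches of the pathway act in heart development in vertebrates.

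The values are normalised read counts, which the authors scaled by a factor of each library and deposited as whole numbers. They are not divided by transcript length and were not compared between genes. The libraries held an estimated 9.86 M to 11.4 M gene reads in EpiCs and 6.44 M to 9.39 M in CMs, and replicates were least alike in wild-type CMs (Pearson correlation 0.920 across genes, against 0.939 in each of the other groups). The summed values of 7 cardiomyocyte markers were 5917 to 9292 in EpiCs and 77265 to 82726 in CMs, and those of 8 epicardial markers were 26571 to 30190 in EpiCs and 824 to 1172 in CMs. Most of the cardiomyocyte sum in CMs was *ttn.1*, *ttn.2* and *myh6*. All 7 were called lower in EpiCs in both genotypes, but 2 of them differed far less than the sum. These were *myl7* (1222 to 1377 in EpiCs, 2466 to 3718 in CMs) and *tnnt2a* (1300 to 1470 in EpiCs, 2273 to 3569 in CMs). *tcf21* itself had values of 1636 and 1454 in mutant EpiCs, 1600 and 1851 in wild-type EpiCs, 5 and 12 in mutant CMs, and 80 and 28 in wild-type CMs. The frameshift does not remove the transcript, so these values check the sorts and not the genotype. In bulk libraries, fewer cells of a type and less RNA per cell cannot be told apart.

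Of the 51 genes, 37 reached a mean value of 10 over the libraries and were tested with limma among 16077 genes. A gene was called at a *P*adj under 0.05 (Benjamini–Hochberg over all genes tested) and an absolute log2FC of at least 0.59. The other 14 genes had no value over 31 in any library: the ligands *wnt2*, *wnt3*, *wnt4b*, *wnt6a*, *wnt7aa*, *wnt7ba*, *wnt7bb*, *wnt10a*, *wnt10b* and *wnt16*, the antagonists *dkk1a*, *dkk2* and *sfrp2l*, and *rspo4*. At this depth no difference could be read from them. *rspo4* was at 0 in all 4 EpiC libraries and both mutant CM libraries, and had values of 9 and 15 in wild-type CMs. *wnt6a* had 13 and 22 in mutant EpiCs, 2 and 7 in wild-type EpiCs, 1 and 5 in mutant CMs, and 0 and 1 in wild-type CMs.

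**Figure D1:**
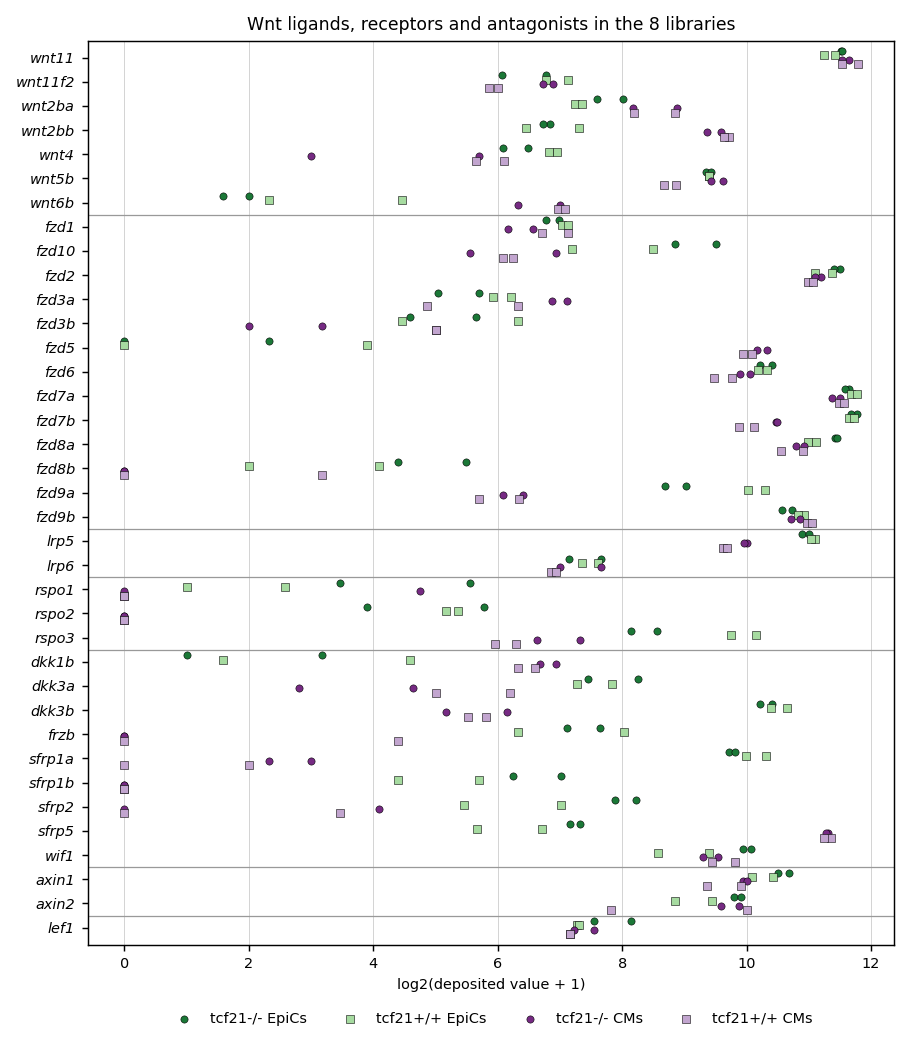
Values of the 37 tested genes in the 8 libraries, as log2(value + 1) on the x axis, with genes in rows by role and 2 points per group (green, EpiCs; purple, CMs; dark circles, *tcf21*-/-; light squares, *tcf21*+/+). EpiC and CM points separate completely for 22 genes, 16 higher and 6 lower in EpiCs, whereas the points of *wnt11* overlap between the cell types.

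EpiCs had more RNA of the antagonists *dkk3b*, *frzb*, *sfrp1a*, *sfrp1b* and *sfrp2*, the receptors *fzd7b*, *fzd9a* and *fzd10*, the co-receptor *lrp5* and the R-spondins *rspo2* and *rspo3*, whereas CMs had more RNA of *fzd5*, *sfrp5*, *dkk1b*, *wnt2bb* and *wnt6b*, in both genotypes. Within mutant hearts 14 of the 37 genes were called higher and 5 lower in EpiCs than in CMs, beside 21.0% and 18.0% of all genes tested. Within wild-type hearts the counts were 13 higher and 6 lower, beside 22.9% and 18.8% of all genes. The median log2FC of the 37 genes was 0.58 in *tcf21*-/- and 0.62 in *tcf21*+/+, against 0.09 and 0.11 over all genes. In all, 11 genes were called higher and 5 lower in both genotypes, 6 were called in 1 genotype only and 15 in neither. All 4 EpiC libraries lay above all 4 CM libraries for 16 genes and below them for 6, beside 26.3% and 22.9% of all genes tested.

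**Figure D2:**
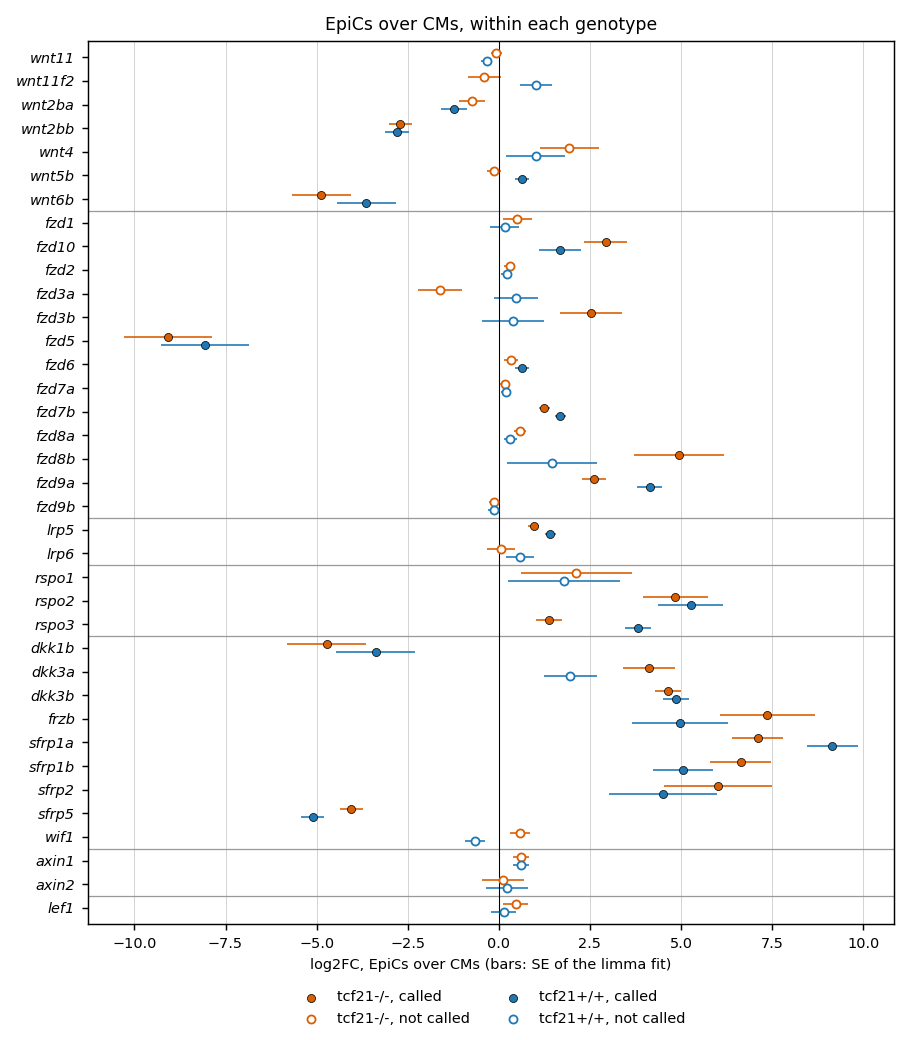
Fitted log2FC of EpiCs over CMs within *tcf21*-/- (orange) and *tcf21*+/+ (blue) hearts for the 37 tested genes, with bars for the SE of the limma fit and filled points for called genes. Among the secreted antagonists, *sfrp5* and *dkk1b* lie left of 0 in both genotypes, and the called genes *dkk3b*, *frzb*, *sfrp1a*, *sfrp1b* and *sfrp2* lie right of it.

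Of the 7 ligands tested, 0 were called higher and 2 lower in mutant EpiCs than in mutant CMs, beside 21.0% and 18.0% of all genes tested. In wild-type EpiCs against wild-type CMs, 1 was called higher and 3 lower, beside 22.9% and 18.8%. *wnt2bb* (ENSDARG00000032234, chr8:27743550-27768785, GRCz11), which in zebrafish is needed for the liver bud to form, had values of 113 and 105 in mutant EpiCs, 158 and 87 in wild-type EpiCs, 659 and 772 in mutant CMs, and 840 and 791 in wild-type CMs. The groups did not overlap between cell types, and *wnt2bb* was lower in EpiCs by a log2FC of -2.70 ± 0.32 in *tcf21*-/- (SE, limma *P*adj 0.000282) and -2.79 ± 0.32 in *tcf21*+/+ (*P*adj 0.000222). Its paralog *wnt2ba* had 256 and 192 in mutant EpiCs, 150 and 163 in wild-type EpiCs, 471 and 288 in mutant CMs, and 462 and 292 in wild-type CMs. Here the same direction passed in *tcf21*+/+ (-1.23 ± 0.36, *P*adj 0.0238) and missed the limit in *tcf21*-/- (-0.73 ± 0.36, *P*adj 0.144). *wnt6b* (chr9:11281969-11341315) had 3 and 2 in mutant EpiCs, 21 and 4 in wild-type EpiCs, 79 and 127 in mutant CMs, and 124 and 134 in wild-type CMs. It was lower in EpiCs by -4.87 ± 0.81 in *tcf21*-/- (*P*adj 0.00161) and -3.63 ± 0.81 in *tcf21*+/+ (*P*adj 0.00652), and *wnt10a*, 38.5 kb away on the same strand, was among the untested ligands.

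Of the ligands known from the non-canonical branch, *wnt11* was not called in either genotype and *wnt5b* was called in 1. *wnt11*, also named *wnt11r* and a regulator of cell shape and coupling in the zebrafish heart, had 2913 and 2968 in mutant EpiCs, 2433 and 2734 in wild-type EpiCs, 3193 and 2958 in mutant CMs, and 3528 and 2965 in wild-type CMs. The difference between EpiCs and CMs was -0.06 ± 0.15 in *tcf21*-/- (limma *P*adj 0.766) and -0.33 ± 0.15 in *tcf21*+/+ (*P*adj 0.108), and turned positive with cyclic loess scaling, at 0.19 and 0.021. *wnt5b*, the pipetail gene of zebrafish gastrulation, had 653 and 687 in mutant EpiCs, 674 and 672 in wild-type EpiCs, 782 and 684 in mutant CMs, and 467 and 407 in wild-type CMs. The wild-type CMs stood below the other 6 libraries, and *wnt5b* was higher in wild-type EpiCs than in wild-type CMs by 0.63 ± 0.19 (*P*adj 0.0296), with -0.13 ± 0.19 (*P*adj 0.64) in *tcf21*-/-. *wnt4* and *wnt11f2* passed in neither genotype, at 1.94 ± 0.82 and -0.39 ± 0.44 in *tcf21*-/- and 1.01 ± 0.82 and 1.03 ± 0.44 in *tcf21*+/+. The *wnt2ba* call was lost without either wild-type EpiC library or without replicate 1 of wild-type CMs or with library quality weights or only the libraries compared (*P*adj 0.0127 to 0.115 over all alternatives). That of *wnt5b*, whose gene overlaps *fbxl14b*, was lost without either wild-type EpiC library, replicate 1 of mutant CMs or replicate 2 of wild-type CMs, and under those settings or with no abundance trend (0.00915 to 0.0997).

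The 13 Frizzled genes encode the receptors that Wnt ligands bind. Of these, 5 were called higher and 1 lower in mutant EpiCs than in mutant CMs, beside 21.0% and 18.0% of all genes tested. In wild-type EpiCs against wild-type CMs, 4 were called higher and 1 lower, beside 22.9% and 18.8%. *fzd5* (ENSDARG00000025420, chr9:28232522-28234444), an eye field and gut receptor in other settings, had 0 and 4 in mutant EpiCs, 14 and 0 in wild-type EpiCs, 1277 and 1144 in mutant CMs, and 1090 and 982 in wild-type CMs. It was close to absent from EpiCs, with a log2FC of -9.08 ± 1.20 in *tcf21*-/- (limma *P*adj 0.000483) and -8.06 ± 1.20 in *tcf21*+/+ (*P*adj 0.000817). *fzd9a* (ENSDARG00000035185, chr5:56023186-56027776) had 520 and 413 in mutant EpiCs, 1035 and 1262 in wild-type EpiCs, 67 and 84 in mutant CMs, and 80 and 51 in wild-type CMs. All EpiC libraries were above all CM libraries, by 2.61 ± 0.34 in *tcf21*-/- (*P*adj 0.000434) and 4.14 ± 0.34 in *tcf21*+/+ (*P*adj 3.98e-05).

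*fzd7b* (ENSDARG00000027589, chr6:9703721-9707599) had 3498 and 3283 in mutant EpiCs, 3194 and 3394 in wild-type EpiCs, 1426 and 1427 in mutant CMs, and 939 and 1110 in wild-type CMs. It was higher in EpiCs by 1.25 ± 0.15 in *tcf21*-/- (limma *P*adj 0.000286) and 1.69 ± 0.15 in *tcf21*+/+ (*P*adj 5.76e-05). The duplicate gene *fzd7a* had 3199 and 3066 in mutant EpiCs, 3271 and 3501 in wild-type EpiCs, 2889 and 2653 in mutant CMs, and 2850 and 3035 in wild-type CMs. Its differences were 0.18 ± 0.13 in *tcf21*-/- and 0.20 ± 0.13 in *tcf21*+/+ (*P*adj 0.328 and 0.255), so that of these duplicates only *fzd7b* passed. *fzd10* had 462 and 725 in mutant EpiCs, 358 and 145 in wild-type EpiCs, 46 and 122 in mutant CMs, and 75 and 67 in wild-type CMs. All EpiC libraries were above all CM libraries, by 2.93 ± 0.58 in *tcf21*-/- (*P*adj 0.00389) and 1.67 ± 0.58 in *tcf21*+/+ (*P*adj 0.0453). The *fzd10* gene lies within *piwil1* on the same strand, and reads that fell on both genes were not counted.

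The called Frizzled genes with low or near-even values were *fzd3b*, *fzd8b* and *fzd6*. *fzd3b* had 23 and 49 in mutant EpiCs, 21 and 79 in wild-type EpiCs, 3 and 8 in mutant CMs, and 31 and 31 in wild-type CMs, and was higher in mutant EpiCs than in mutant CMs (2.53 ± 0.85, limma *P*adj 0.0421). *fzd8b* had 44 and 20 in mutant EpiCs, 16 and 3 in wild-type EpiCs, 0 and 0 in mutant CMs, and 0 and 8 in wild-type CMs, so that mutant EpiCs were at least 9.35-fold higher than mutant CMs when a CM library at 0 was set to 3 reads (*P*adj 0.012), or 5.84-fold without replicate 1 of these EpiCs. *fzd6*, a polarity receptor of skin in mammals, had 1187 and 1361 in mutant EpiCs, 1161 and 1281 in wild-type EpiCs, 949 and 1065 in mutant CMs, and 709 and 865 in wild-type CMs, and was called in *tcf21*+/+ only (0.64 ± 0.18, *P*adj 0.0221, against 0.34 ± 0.18, *P*adj 0.182, in *tcf21*-/-). In *tcf21*-/- the *fzd3b* call was lost without any 1 of the 4 libraries compared and with a pseudocount of 16, no filter or cyclic loess (*P*adj up to 0.216). That of *fzd8b* was lost without replicate 1 of the EpiCs or either CM library and with cyclic loess (up to 0.0746). In *tcf21*+/+ the *fzd6* call was lost without either EpiC library or replicate 1 of the CMs, with no abundance trend and with only the libraries compared (*P*adj up to 0.109). The *fzd10* call in *tcf21*+/+ held in only 8 of 19 alternatives (*P*adj up to 0.299). It was lost without replicate 1 of the EpiCs, either CM library or either mutant EpiC library, and with no filter, cyclic loess, library quality weights, no abundance trend, the replicate block or only the libraries compared.

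No call was made for the other Frizzled genes. *fzd2*, a receptor of Wnt5 ligands, had 2884 and 2701 in mutant EpiCs, 2196 and 2637 in wild-type EpiCs, 2345 and 2199 in mutant CMs, and 2023 and 2133 in wild-type CMs. *fzd9b* had 1703 and 1524 in mutant EpiCs, 1949 and 1810 in wild-type EpiCs, 1685 and 1844 in mutant CMs, and 2005 and 2118 in wild-type CMs. *fzd8a* had 2746 and 2791 in mutant EpiCs, 2021 and 2216 in wild-type EpiCs, 1948 and 1771 in mutant CMs, and 1925 and 1493 in wild-type CMs. The mutant EpiCs were the highest group for *fzd8a*, and their difference from mutant CMs (0.58 ± 0.17, limma *P*adj 0.0237) passed the *P*adj limit and fell just short of the fold limit. Cyclic loess and rescaling each library to a common total each called it. *fzd1* and *fzd3a* stayed between values of 28 and 139 in all libraries.

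*lrp5* (ENSDARG00000006921) encodes a co-receptor of canonical signalling and had 1889 and 2044 in mutant EpiCs, 2201 and 2094 in wild-type EpiCs, 1028 and 995 in mutant CMs, and 785 and 821 in wild-type CMs. It was higher in EpiCs by 0.96 ± 0.15 in *tcf21*-/- (limma *P*adj 0.00121) and 1.42 ± 0.15 in *tcf21*+/+ (*P*adj 0.000139). Its partner in this role, *lrp6*, ranged over 115 to 202 in all libraries and was not called (0.07 ± 0.39 in *tcf21*-/- and 0.58 ± 0.39 in *tcf21*+/+). The *lrp5* gene overlaps *ap3s2* on the opposite strand.

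Of the 3 R-spondin genes tested, 2 were called higher in EpiCs in both genotypes, beside 21.0% of all genes in *tcf21*-/- and 22.9% in *tcf21*+/+. *rspo3* (ENSDARG00000070081), whose mouse counterpart is needed for the coronary vessels, had 377 and 281 in mutant EpiCs, 858 and 1136 in wild-type EpiCs, 98 and 159 in mutant CMs, and 77 and 61 in wild-type CMs. EpiCs were above CMs in every library, by 1.38 ± 0.35 in *tcf21*-/- (limma *P*adj 0.0142) and 3.83 ± 0.35 in *tcf21*+/+ (*P*adj 7.17e-05). *rspo2* had 54 and 14 in mutant EpiCs, 35 and 40 in wild-type EpiCs, and 0 in all 4 CM libraries. With a CM library at 0 set to 3 reads, EpiCs were at least 9.93-fold higher in *tcf21*-/- (*P*adj 0.00278) and at least 7.95-fold higher in *tcf21*+/+ (*P*adj 0.00166). Without replicate 1 of the mutant EpiCs the bound in *tcf21*-/- was 4.09-fold. *rspo1* reached 46 in 1 mutant EpiC library and was not called. The *rspo3* call in *tcf21*-/- was lost without replicate 1 of the EpiCs or replicate 1 of the CMs (*P*adj 0.00565 to 0.107 over all alternatives).

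Secreted antagonists were found on both sides of the comparison. Of the 9 tested, 6 were called higher and 2 lower in mutant EpiCs than in mutant CMs, beside 21.0% and 18.0% of all genes tested. In wild-type EpiCs against wild-type CMs, 5 were called higher and 2 lower, beside 22.9% and 18.8%. Among the Sfrp proteins, which carry a Frizzled-like domain and bind Wnt ligands, *sfrp1a* (ENSDARG00000035521) had 839 and 902 in mutant EpiCs, 1019 and 1275 in wild-type EpiCs, 7 and 4 in mutant CMs, and 0 and 3 in wild-type CMs. EpiCs were higher by 7.11 ± 0.70 in *tcf21*-/- (limma *P*adj 0.000102) and 9.16 ± 0.70 in *tcf21*+/+ (*P*adj 3.13e-05). *sfrp5* (ENSDARG00000039041) had the opposite preference, with 159 and 142 in mutant EpiCs, 50 and 104 in wild-type EpiCs, 2525 and 2473 in mutant CMs, and 2620 and 2418 in wild-type CMs. It was lower in EpiCs by -4.05 ± 0.32 in *tcf21*-/- (*P*adj 3.92e-05) and -5.10 ± 0.32 in *tcf21*+/+ (*P*adj 1.6e-05). The end of *sfrp1a* overlaps *loxl2b* on the same strand, which is abundant here, and reads on both genes were not counted.

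*sfrp1b* had 129 and 75 in mutant EpiCs, 20 and 51 in wild-type EpiCs, and 0 in all 4 CM libraries, which makes EpiCs at least 29.8-fold higher in *tcf21*-/- (limma *P*adj 0.000354) and at least 7.52-fold higher in *tcf21*+/+ (*P*adj 0.00137), or 4.24-fold without replicate 2 of the wild-type EpiCs. *sfrp2* had 299 and 236 in mutant EpiCs, 43 and 128 in wild-type EpiCs, 0 and 16 in mutant CMs, and 0 and 10 in wild-type CMs, and was higher in EpiCs by 6.02 ± 1.48 in *tcf21*-/- (*P*adj 0.0113) and 4.51 ± 1.48 in *tcf21*+/+ (*P*adj 0.0374). *frzb*, which like the Sfrp proteins binds Wnt ligands and is known from cartilage, had 198 and 137 in mutant EpiCs, 79 and 259 in wild-type EpiCs, 0 and 0 in mutant CMs, and 20 and 0 in wild-type CMs. EpiCs were at least 48.9-fold higher in *tcf21*-/- (*P*adj 0.00232) and higher by 4.98 ± 1.31 on the log2 scale in *tcf21*+/+ (*P*adj 0.0148). The *sfrp2* call was lost in *tcf21*-/- without either EpiC library or replicate 1 of the CMs (*P*adj up to 0.0761), and held in *tcf21*+/+ in 10 of 19 alternatives (up to 0.205), being lost without any 1 of the 4 EpiC libraries of both genotypes or replicate 1 of the wild-type CMs and with cyclic loess, library quality weights, no abundance trend or only the libraries compared. That of *frzb* in *tcf21*+/+ was lost without replicate 2 of the EpiCs, with cyclic loess and with only the libraries compared (up to 0.117).

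The Dickkopf genes were split between the cell types. *dkk3b* (ENSDARG00000070683), of the divergent Dkk3 branch that does not act on Lrp co-receptors as Dkk1 does, had 1350 and 1181 in mutant EpiCs, 1344 and 1603 in wild-type EpiCs, 35 and 70 in mutant CMs, and 55 and 45 in wild-type CMs. It was higher in EpiCs by 4.64 ± 0.36 in *tcf21*-/- (limma *P*adj 3.69e-05) and 4.85 ± 0.36 in *tcf21*+/+ (*P*adj 2.89e-05). *dkk3a* had 173 and 305 in mutant EpiCs, 228 and 154 in wild-type EpiCs, 24 and 6 in mutant CMs, and 31 and 72 in wild-type CMs, with 4.12 ± 0.73 in *tcf21*-/- (*P*adj 0.00221) and 1.96 ± 0.73 in *tcf21*+/+, just past the limit at a *P*adj of 0.0573. Several alternatives called *dkk3a* in *tcf21*+/+ as well, among them a pseudocount of 4 or 16 and a mean of at least 50. *dkk1b*, the Lrp-blocking antagonist of head induction in zebrafish, had 1 and 8 in mutant EpiCs, 2 and 23 in wild-type EpiCs, 122 and 101 in mutant CMs, and 96 and 79 in wild-type CMs. It was lower in EpiCs by -4.72 ± 1.08 in *tcf21*-/- (*P*adj 0.00802) and -3.38 ± 1.08 in *tcf21*+/+ (*P*adj 0.0339). The *dkk1b* call was lost in *tcf21*-/- without replicate 1 of the EpiCs, and in *tcf21*+/+ without replicate 1 of the EpiCs or without any 1 of the 4 CM libraries of both genotypes, and with library quality weights, no abundance trend or only the libraries compared (*P*adj up to 0.0692 and 0.217).

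*wif1*, a Wnt-binding antagonist, had 986 and 1075 in mutant EpiCs, 380 and 669 in wild-type EpiCs, 629 and 745 in mutant CMs, and 698 and 895 in wild-type CMs. It was not called between the cell types, at 0.59 ± 0.28 in *tcf21*-/- (limma *P*adj 0.135) and -0.65 ± 0.28 in *tcf21*+/+ (*P*adj 0.097). Inside the cell, *axin1*, a scaffold of the destruction complex, had 1649 and 1452 in mutant EpiCs, 1366 and 1082 in wild-type EpiCs, 986 and 1027 in mutant CMs, and 654 and 957 in wild-type CMs. All EpiC libraries were above all CM libraries, and the difference of 0.62 ± 0.22 in both genotypes just missed the limit (*P*adj 0.0549 in *tcf21*-/- and 0.0521 in *tcf21*+/+). With a pseudocount of 16, a mean of at least 50 or cyclic loess, *axin1* was called higher in EpiCs in both genotypes. Some other alternatives called it in 1 genotype only. The *axin1* gene overlaps *snn* on the same strand. *axin2*, a feedback inhibitor that canonical signalling itself switches on, had 893 and 963 in mutant EpiCs, 696 and 460 in wild-type EpiCs, 770 and 943 in mutant CMs, and 226 and 1028 in wild-type CMs. The wild-type CM libraries spanned the whole range of the gene, and no difference was called. *lef1*, the nuclear partner of β-catenin, ranged over 142 to 281 and was not called either.

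Many genes listed as markers of other cell types moved with this comparison. Summed values of 5 smooth muscle markers were 17859 to 22381 in EpiCs and 2426 to 4503 in CMs. *elnb*, *mylka* and *myh11a* were called higher in EpiCs in both genotypes, and *tagln* in *tcf21*-/- only. *acta2*, most of the sum in CMs, had 2413 to 2820 in EpiCs and 2018 to 3685 in CMs. It was not called, at 0.19 ± 0.18 in *tcf21*-/- and -0.31 ± 0.18 in *tcf21*+/+. Summed values of 2 cartilage markers were 1222 to 1368 in EpiCs and 9 to 19 in CMs. Most of the EpiC sum was *sox9a* (1133 to 1301), with *col2a1a* at 66 to 122. Those of 2 liver markers were 1252 to 1777 in EpiCs and 0 to 83 in CMs. Here most of the EpiC sum was *tfa* (1246 to 1763), with *fabp10a* at 6 to 17. Leukocyte markers (6 genes) ran the other way, with 17 to 51 in EpiCs and 481 to 2450 in CMs. Of the endothelial markers, 4 were called higher and 1, *cdh5*, lower in EpiCs in both genotypes. Their part in the differences between EpiCs and CMs was not tested.

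Between genotypes, 0 of the 37 genes were called in EpiCs and 0 in CMs by limma, with a lowest *P*adj of 0.171 in EpiCs and 0.219 in CMs. Over all genes tested, 0.193% were called in EpiCs and 0.367% in CMs. At an unadjusted *P* under 0.05 there were 6 of the 37 genes in EpiCs (4 higher and 2 lower in *tcf21*-/-) and 7 in CMs (5 higher and 2 lower), beside 8.46% and 12.2% of all genes. The libraries of the 2 genotypes did not overlap for 14 genes higher and 11 lower in mutant EpiCs (21.6% and 21.5% of all genes) and for 14 higher and 5 lower in mutant CMs (20.6% and 19.3%). The values that follow are mainly those of the genes at an unadjusted *P* under 0.05, none of which passed the adjusted limit. They are not the largest log2FC. In EpiCs *rspo1* (2.71 ± 1.53), *fzd8b* (1.90 ± 1.23), *sfrp1b* (1.59 ± 0.83) and *wnt6b* (-1.60 ± 0.81) did not overlap between genotypes. Their errors were wider, and their unadjusted limma *P* was 0.0805 to 0.159.

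**Figure D3:**
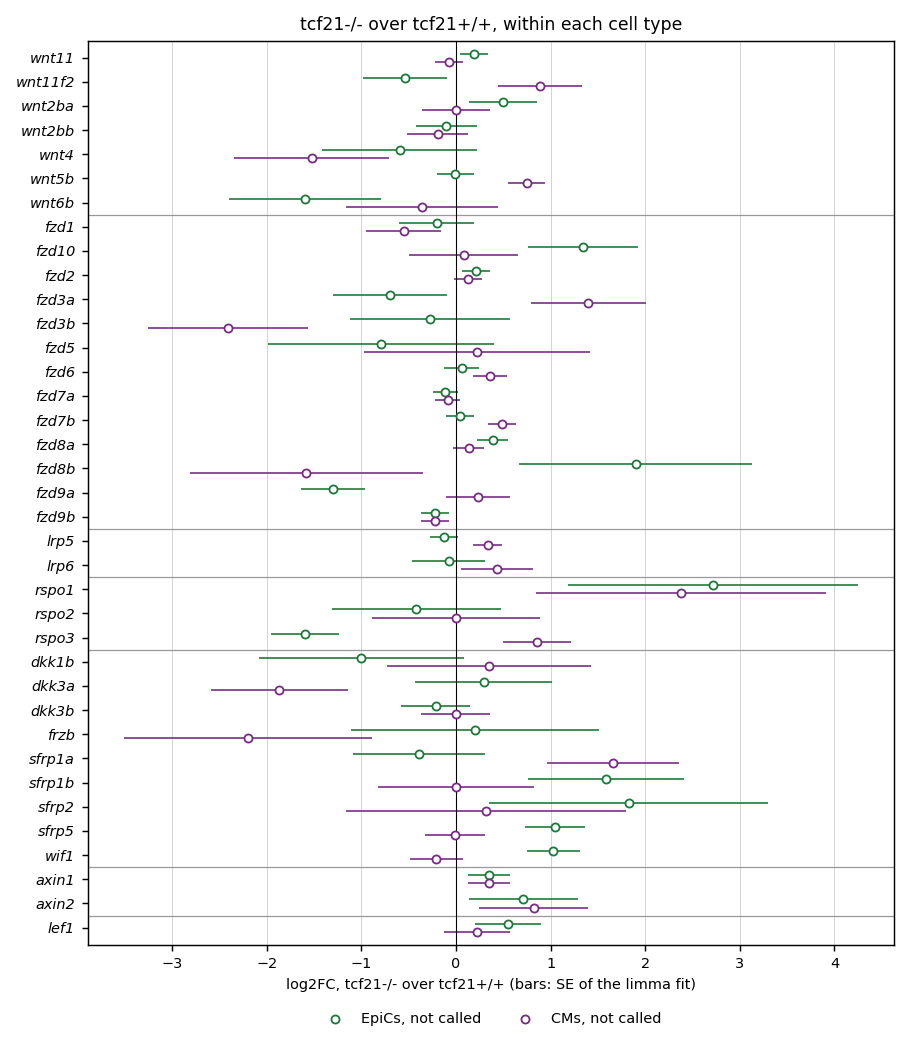
Fitted log2FC of *tcf21*-/- over *tcf21*+/+ in EpiCs (green) and CMs (purple) for the 37 tested genes, with bars for the SE of the limma fit; open points mark genes that were not called, which here is all of them. In EpiCs *rspo3* and *fzd9a* lie at -1.60 and -1.30 with short bars, and in CMs *wnt5b* lies at 0.75.

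In EpiCs the largest difference against its error belonged to *rspo3*, with 377 and 281 in mutant EpiCs and 858 and 1136 in wild-type EpiCs (log2FC -1.60 ± 0.35, limma *P*adj 0.171). The mean was 329 ± 67.9 in *tcf21*-/- and 997 ± 197 in *tcf21*+/+ (SD, n = 2 each), and the genotypes did not overlap. *fzd9a*, a receptor gene of the same cells, had 520 and 413 in mutant EpiCs and 1035 and 1262 in wild-type EpiCs (-1.30 ± 0.34, limma *P*adj 0.268). The 4 genes with higher values at an unadjusted limma *P* under 0.05 were antagonists and receptors. *wif1* had 986 and 1075 in mutant EpiCs and 380 and 669 in wild-type EpiCs (1.03 ± 0.28, limma *P*adj 0.306), and *sfrp5* had 159 and 142 in mutant EpiCs and 50 and 104 in wild-type EpiCs (1.05 ± 0.32, *P*adj 0.358). *fzd10* and *fzd8a* followed at 1.34 ± 0.58 and 0.39 ± 0.17 (limma *P*adj 0.579 each). *wif1* and *sfrp5* encode secreted Wnt-binding proteins, whereas *rspo3* encodes a secreted agonist. Other genes of these roles went the other way. *sfrp1a* had 839 and 902 in mutant EpiCs and 1019 and 1275 in wild-type EpiCs (-0.39 ± 0.70), and *rspo1* was at 2.71 ± 1.53. Of the 9 antagonists tested, 6 had a positive and 3 a negative log2FC, and an effect on signalling was not tested. *sfrp2* had 299 and 236 in mutant EpiCs and 43 and 128 in wild-type EpiCs without overlap, and its log2FC of 1.82 ± 1.48 had a limma *P*adj of 0.846. The SE rests on a spread shared by the 4 groups, not on the EpiC libraries alone. It takes in the CM values of *sfrp2*, 0 and 16 in mutant and 0 and 10 in wild-type CMs. Over the alternatives the limma *P*adj of *sfrp2* was 0.263 at the lowest. The paper names *sfrp2* as a secreted factor with higher expression in *tcf21*-/- hearts. Its differential genes came from DESeq2, a different test from the limma fit used here. Over all 20 alternatives no gene of the described set was called between mutant and wild-type EpiCs, and *rspo3* came nearest at a limma *P*adj of 0.0616. The cardiomyocyte gene *nppa* was called lower in mutant EpiCs (127 and 80, against 740 and 618 in wild-type EpiCs, limma *P*adj 0.0192), and *myh6* had 88 and 130 in mutant EpiCs and 540 and 229 in wild-type EpiCs, while the summed cardiomyocyte markers overlapped. Of the 7 cardiomyocyte markers, 5 had a negative and 2 a positive log2FC here. *actn2b* (1220 and 953, against 1039 and 728) was at 0.31 and *ttn.1* at 0.14. *ttn.2*, *myl7* and *tnnt2a* were at -0.09 to -0.03. Summed endothelial markers were 5246 to 5465 in mutant EpiCs and 3873 to 5017 in wild-type EpiCs. Of the 7 tested, 5 had a positive log2FC, with *pecam1*, *tie1*, *cdh5* and *nfatc1* at an unadjusted limma *P* under 0.05. *pecam1* (56 and 11, against 0 and 0) and *cdh5* (40 and 12, against 1 and 12) had low values. The other 2 had a negative log2FC: *kdrl* (1704 and 1356, against 2140 and 1452) and *egfl7* (270 and 247, against 272 and 294). Summed leukocyte markers were 44 to 51 in mutant EpiCs and 17 in both wild-type EpiC libraries. These are low values, with a positive log2FC for 4 genes and a negative one for *coro1a* (23 and 0, against 11 and 7). *ptprc* was at 0 in all EpiC libraries, and only *lcp1* (7 and 31, against 1 and 0) did not overlap. Summed smooth muscle markers were 20163 to 22381 in mutant EpiCs and 17859 to 18287 in wild-type EpiCs. Of the 5, 3 had a positive log2FC (*myh11a* 0.31, *elnb* 0.24 and *mylka* 0.35) and 2 a negative one (*acta2* -0.05 and *tagln* -0.06). None was at an unadjusted limma *P* under 0.05. Liver markers, mostly *tfa*, were 1252 to 1470 in mutant EpiCs and 1637 to 1777 in wild-type EpiCs. The part of these markers in the values above was not tested.

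In CMs *wnt5b* stood first in the same order, with 782 and 684 in mutant CMs and 467 and 407 in wild-type CMs (0.75 ± 0.19, limma *P*adj 0.219), while in EpiCs it differed by -0.01 ± 0.19. The receptor gene *fzd7b* had 1426 and 1427 in mutant CMs and 939 and 1110 in wild-type CMs (0.48 ± 0.15, limma *P*adj 0.292). The genotypes did not overlap for these genes. *fzd3a* had 137 and 116 in mutant CMs and 28 and 79 in wild-type CMs (1.40 ± 0.60, limma *P*adj 0.404), and its duplicate *fzd3b* ran the other way, with 3 and 8 in mutant CMs and 31 and 31 in wild-type CMs (-2.42 ± 0.85, *P*adj 0.336). *dkk3a* (-1.87 ± 0.73), *rspo3* (0.86 ± 0.35) and *sfrp1a* (1.66 ± 0.70), all low in CMs, completed the list of 7. *axin2* had a difference of 0.82 ± 0.58 (limma *P*adj 0.537) that rested on wild-type values of 226 and 1028, and was -0.27 without replicate 1 of the wild-type CMs. Without replicate 2, *axin2* (1.91), *sfrp1a* (2.66) and *fzd7b* (0.60) were called higher and *frzb* (-4.39) lower in mutant CMs (limma *P*adj 0.0154 to 0.0345), but the calls over all genes then grew to 5.98% higher and 2.47% lower. Leukocyte markers were also higher in mutant CMs (summed values 1724 to 2450, against 481 to 616 in wild-type CMs) and summed smooth muscle markers lower (2426 to 2679, against 3462 to 4503). Most of the smooth muscle sum was *acta2* (2405 and 2018, against 3685 and 2831) and *tagln* (257 and 254, against 757 and 431). *myh11a*, *elnb* and *mylka* had values of at most 107 in CMs and overlapped between genotypes. Summed epicardial, erythroid and liver markers overlapped between genotypes in CMs. Single genes among them did not, such as *tcf21* (5 and 12, against 80 and 28, log2FC -2.46 ± 0.54). The erythroid gene *slc4a1a* had 175 and 24, against 0 and 0 (6.05 ± 1.46). Of the 8 epicardial markers, 5 had a negative and 3 a positive log2FC. The part of these markers in the values above was not tested.

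**Figure D4:**
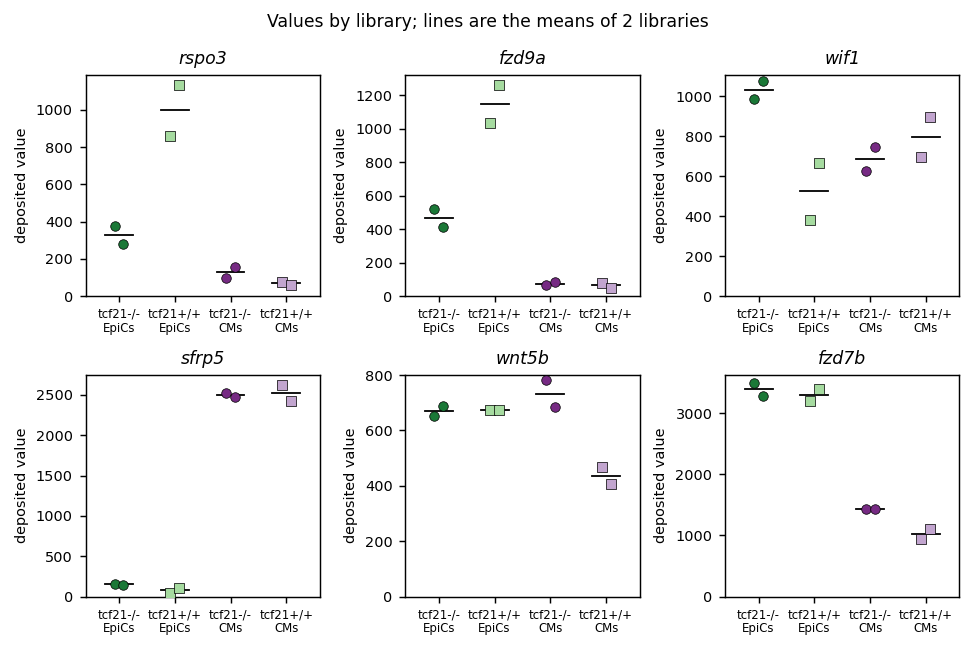
Values of 6 genes by library (points, 2 per group) with the mean of each group (line), from left to right in mutant EpiCs, wild-type EpiCs, mutant CMs and wild-type CMs, on axes that start at 0. The mutant EpiCs lie below the wild-type EpiCs for *rspo3* and *fzd9a* and above them for *wif1*, and *sfrp5* is high in CMs at all 4 points.

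The difference of the genotype effect between the cell types was tested as an interaction (the log2FC in EpiCs minus that in CMs), and limma called 0 of the 37 genes and 0 of all genes tested (0.0%). The same test asks whether the difference between EpiCs and CMs changed with genotype, so the 6 genes called in 1 genotype only were not shown to differ between genotypes. At an unadjusted *P* under 0.05 there were 6 of the 37 (2 positive and 4 negative), beside 7.07% of all genes. *rspo3* came first, with an interaction of -2.45 ± 0.50 (limma *P*adj 0.218). The other 5 were *fzd9a* (-1.53 ± 0.48), *wif1* (1.24 ± 0.40), *wnt5b* (-0.75 ± 0.27), *fzd3a* (-2.10 ± 0.85) and *sfrp5* (1.06 ± 0.45), with limma *P*adj from 0.482 to 0.698. For 5 genes (4.82% of all genes) the genotypes were apart in opposite directions in EpiCs and CMs: *rspo3*, *fzd3a*, *lrp5*, *sfrp1a* and *wnt11f2*.

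The rest of the pathway was described with a list of Wnt genes outside this set, of which 64 were in the table and 61 were tested. In *tcf21*-/-, 19 were called higher and 11 lower in EpiCs than in CMs, beside 21.0% and 18.0% of all genes. In *tcf21*+/+, 15 were called higher and 6 lower, beside 22.9% and 18.8%, and the median log2FC was 0.16 in *tcf21*-/- and 0.30 in *tcf21*+/+. Among those called higher in EpiCs in both genotypes were the Lrp-binding inhibitors *sost* and *sostdc1a*. *sost* had 1644 and 1515 in mutant EpiCs, 748 and 1121 in wild-type EpiCs, 1 and 0 in mutant CMs, and 27 and 3 in wild-type CMs (10.13 ± 0.86 in *tcf21*-/- and 6.44 ± 0.86 in *tcf21*+/+). The Wnt receptor *ror1*, the feedback inhibitors *nkd1* and *nkd2a*, the relay protein *dvl1b*, *porcnl* of the family that adds the lipid to Wnt proteins, the nuclear factors *bcl9* and *tcf7l1a*, the target *myca* and the core polarity genes *vangl1* and *vangl2* were higher in EpiCs as well. Called lower in EpiCs in both genotypes were the R-spondin receptor *lgr4*, the polarity genes *prickle1b*, *prickle3*, *celsr1a* and *scrib*, and *apcdd1l*, a relative of a membrane-bound Wnt inhibitor. *apcdd1l* had 79 and 61 in mutant EpiCs, 121 and 55 in wild-type EpiCs, 3190 and 3621 in mutant CMs, and 2701 and 4205 in wild-type CMs (-5.59 ± 0.38 in *tcf21*-/- and -5.35 ± 0.38 in *tcf21*+/+). Polarity genes were therefore found on both sides, with *vangl1* at 78 and 87 in mutant EpiCs, 68 and 86 in wild-type EpiCs, 0 and 4 in mutant CMs, and 0 in both wild-type CM libraries.

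Between genotypes limma called 0 of these 61 genes in either cell type, with 10 at an unadjusted *P* under 0.05 in EpiCs (8 higher and 2 lower in *tcf21*-/-) and 11 in CMs (8 higher and 3 lower), beside 8.46% and 12.2% of all genes. The fitted log2FC was positive for 44 and negative for 17 genes in EpiCs and positive for 43 and negative for 18 in CMs. Of all 16077 genes tested, it was positive for 7743 and negative for 8260 in EpiCs and positive for 7849 and negative for 7877 in CMs. The medians were 0.21 in EpiCs and 0.31 in CMs, where all genes had medians of -0.01 and 0.00. The wild-type CM libraries lay far apart for some of these genes. Replicate 1 was the lower for *dvl3a* (171 and 622), *scrib* (1582 and 3072) and *ror1* (20 and 221). It was the higher for others, such as *notum1b* (450 and 302). The part of this spread in the CM median was not tested.

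**Figure D5:**
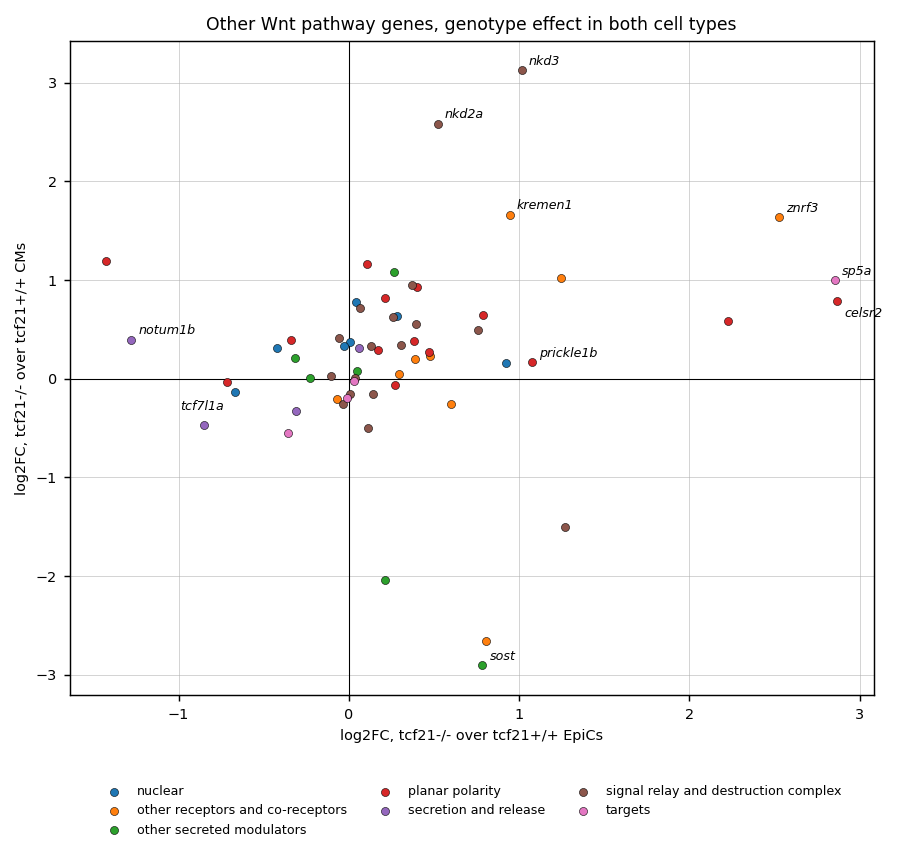
Fitted log2FC of *tcf21*-/- over *tcf21*+/+ in EpiCs (x axis) and in CMs (y axis) for the 61 tested Wnt pathway genes outside the described set, 1 point per gene, coloured by function. None was called in either cell type, and *znrf3* lies at 2.52 in EpiCs and 1.64 in CMs; the labelled genes were chosen after their values were seen.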

How the data were processed

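RNA-seq libraries of sorted EpiCs and CMs at 96 hpf were prepared with SMART-Seq v4. According to their methods and processing notes, the authors trimmed the reads with Trimmomatic 0.39, aligned them to danRer11 (GRCz11, Ensembl release 99) with STAR 2.7.3a, counted those on 1 gene only with featureCounts 1.6.5, without multi-mapping reads, and normalised with DESeq2 1.26.0. Whether counting used strand is not given in the sources used here. The score values the authors deposited were whole numbers and look like rounded counts scaled by a factor of each library, so no count model was run. The step between low values gave 1 read as 0.776 to 1.57 units and so the estimated depth. On simulated data this estimate recovered 28 of 33 factors within 0.002 and failed mainly for factors near 1, but it recovered the factors of these libraries in 24 of 24 simulations. Floors are the value of 3 reads in the shallower library of a group and cover counting error only.

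Values were tested as log2(value + 1) with limma 3.58.1 in R 4.3.3 (eBayes with an abundance trend), all 8 libraries in 1 fit of group means, for genes with a mean of at least 10. Tests were two-sided, and fold changes are on this scale, where the added 1 shrinks ratios of low values and groups are averaged as logs, so they can lie above or below the ratio of the mean values. The fit was tested on simulated data. Tables were made with Python 3.11.15 and pandas 2.3.3. In all, 20 alternatives were tried: 8 left out 1 library each, and 12 changed the pseudocount (4, 16), filter (none, 50), scaling, library weights, trend, libraries fitted, replicate block or fold limit (1).

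The genes and lists were chosen with earlier results of these data known. Values by library are given for the genes called in a comparison, those without overlap between genotypes at an unadjusted *P* under 0.05, and the 15 with the highest mean, and listed pathway genes are named where called between genotypes or in both comparisons of cell types. All 51 symbols matched the RefSeq table of zebrafish genes, used for synonyms only. Sequences were not used here.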

Additional observations from a re-analysis of the deposited data

Results flagged for a closer look

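For 5 of the 37 genes tested, both libraries of mutant EpiCs lay on one side of the wild-type EpiCs and both libraries of mutant CMs on the other side of the wild-type CMs, beside 4.82% of all genes tested. None passed the limma test of the interaction, the log2FC in EpiCs minus that in CMs. *rspo3* had an interaction of -2.45 (limma *P*adj 0.218), with a log2FC of -1.60 in EpiCs and 0.86 in CMs. *fzd3a* had -2.10 (limma *P*adj 0.67), with 32 and 51 in mutant EpiCs, 60 and 73 in wild-type EpiCs, 137 and 116 in mutant CMs, and 28 and 79 in wild-type CMs, and its gene overlaps *fbxo16* on the opposite strand. *sfrp1a* had -2.05 (limma *P*adj 0.754), on 7 and 4 in mutant CMs against 0 and 3 in wild-type CMs, a few reads each. *wnt11f2*, the silberblick gene of zebrafish gastrulation, had -1.42 (limma *P*adj 0.708), with 66 and 108 in mutant EpiCs, 109 and 139 in wild-type EpiCs, 105 and 118 in mutant CMs, and 63 and 57 in wild-type CMs. *lrp5* had -0.46 (limma *P*adj 0.735), with a log2FC of -0.13 in EpiCs and 0.33 in CMs.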

How the results depend on the processing

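With 2 libraries a group, calls rest on a spread shared by all groups, and with only the libraries compared 8 genes, not 13, were called higher in wild-type EpiCs than in wild-type CMs. Leaving out 1 library at a time gave 9 to 14 such calls and 10 to 15 in *tcf21*-/-, and, in mutant against wild-type CMs, 0 to 3 higher and 0 to 1 lower, the highest of each without replicate 2 of wild-type CMs. Shares of all genes called between the cell types under the alternatives are not given here, so these counts cannot be set against them. No called gene changed direction in the alternatives run. Of differences that were not called, *wnt11* between EpiCs and CMs turned to 0.19 in *tcf21*-/- and 0.021 in *tcf21*+/+ with cyclic loess, and *lrp6* in *tcf21*-/- to -0.051. With 1 library left out, *lrp6* in *tcf21*-/- ranged over -0.26 to 0.40, *wnt5b* between mutant and wild-type EpiCs over -0.043 to 0.030, and *axin2* between mutant and wild-type CMs over -0.27 to 1.91.

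For the 61 other pathway genes, those called higher in mutant EpiCs than in mutant CMs were 12 with a mean of at least 50 and 12 to 20 with 1 library left out, and those lower 5 to 12. In mutant against wild-type EpiCs, 1 was called higher with a pseudocount of 4 (*znrf3*), 2 with a pseudocount of 16 and 2 with library quality weights (*znrf3* and *prickle1b* each time), which also called 1 lower (*tcf7l1a*). With 1 library left out, the log2FC of *znrf3* there was 2.46 to 2.59. In CMs, 1 was called higher without an abundance trend (*nkd2a*), and 0 to 7 higher and 0 to 3 lower with 1 library left out. All these left-out calls in CMs came without replicate 2 of wild-type CMs. That fit leaves 1 library in the group, and calls over all genes in CMs also grew, as given above. The interaction in that fit was 5.09 for *sost* and 4.30 for *sostdc1a*, against 3.69 and 2.26 with all libraries. Of all genes, 0.131% were called higher in mutant EpiCs with a pseudocount of 4 and 0.267% with 16. Library quality weights called 0.299% higher and 0.529% lower there. Without an abundance trend, 0.361% were called higher in mutant CMs. Rescaling each library to a common total moved the median log2FC of all genes between wild-type EpiCs and CMs to 0.24, and cyclic loess to 0.00, against 0.11 as deposited.

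Same-numbered libraries did not deviate together (correlations from -0.0805 to 0.0669), so the numbers were not taken to pair samples. With the replicate block, 12 genes were called higher in wild-type EpiCs than in CMs, *fzd10* being lost (*P*adj 0.0576), and 14 in *tcf21*-/-. Genes with values near 0 in a group depend on the pseudocount. The cause of these changes was not tested.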

Other observations

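Some genes of the pathway list outside the described set stood apart between genotypes, and were chosen after their values were seen. *znrf3*, a ubiquitin ligase that removes Frizzled receptors from the cell surface and that R-spondins counteract, had 365 and 357 in mutant EpiCs, 65 and 59 in wild-type EpiCs, 391 and 266 in mutant CMs, and 68 and 156 in wild-type CMs. Both cell types had higher values in *tcf21*-/- without overlap, by 2.52 ± 0.44 in EpiCs (limma *P*adj 0.0814) and 1.64 ± 0.44 in CMs (limma *P*adj 0.235). *kremen1*, a receptor for Dkk1, had 203 and 332 in mutant EpiCs, 134 and 135 in wild-type EpiCs, 541 and 302 in mutant CMs, and 110 and 147 in wild-type CMs, with 0.94 ± 0.40 in EpiCs and 1.66 ± 0.40 in CMs (limma *P*adj 0.574 and 0.176). *prickle1b*, a planar polarity gene, had 797 and 997 in mutant EpiCs and 422 and 423 in wild-type EpiCs (1.08 ± 0.19, limma *P*adj 0.0822). *tcf7l1a*, which represses Wnt targets, had 1971 and 2135 in mutant EpiCs and 3137 and 3404 in wild-type EpiCs (-0.67 ± 0.15, limma *P*adj 0.161). *znrf3* and *kremen1* lie close to each other in GRCz11, at chr5:15992655-16126906 and chr5:16151944-16274058. None of these genes passed the adjusted limit, and *znrf3*, *prickle1b* and *tcf7l1a* did under some alternatives given above.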
